A study of Homo sapiens with 12 samples.

Results

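Potassium channel genes were followed across 2 human metastatic melanoma cell lines, LOX-IMVI BR and A375, exposed to compounds directed at telomerase. The genes were taken by name: every row of the count table whose symbol consists of KCN, further letters and a closing number, which gave 95 of 75249 genes. KCNRG was the only row starting with KCN that fell outside that pattern. By their usual classification, 40 of the 95 encode voltage-gated pore subunits, 8 encode calcium- or sodium-activated pore subunits, 16 encode inward rectifiers, 15 encode KCNK leak channels and 16 encode auxiliary or interacting proteins. The 6 groups, of 2 biological replicates each, were LOX-IMVI BR with 6-thio-dG at 5 µM, LOX-IMVI BR with BIBR1532 at 25 µM, LOX-IMVI BR control, A375 with 6-thio-dG at 5 µM, A375 with BIBR1532 at 25 µM and A375 control. 6-thio-dG is a nucleoside analogue that telomerase can build into telomeres, and BIBR1532 is a non-nucleoside inhibitor of telomerase. Each line is a single cultured tumour line, so the comparisons describe these lines and not melanoma at large. The sources used here do not state the vehicle, how long cells were exposed, or what BR means.

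Potassium channels let potassium leave the cell, which holds the membrane potential negative and thereby affects calcium entry, cell volume and progression through the cell cycle. Voltage-gated pores open on depolarisation, calcium-activated pores open when internal calcium rises, inward rectifiers and leak channels set the resting potential, and auxiliary subunits change how the pores open or reach the membrane. KCNH1, the ether-à-go-go channel, is expressed mainly in brain among healthy tissues and has been found in many tumours, melanoma among them. KCNMA1, the large-conductance calcium-activated channel, and KCNN4, the intermediate-conductance one, are also known from melanoma cells.

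Libraries held 11813388 to 25822381 counts. Replicates of LOX-IMVI BR lay close together, with a biological coefficient of variation of 4.62%, against 36.8% in A375 and 25.8% over both lines. A375 control replicate 2 had the lowest scaling factor from the trimmed mean of M-values (TMM), 0.746, and A375 6-thio-dG replicate 2 the highest, 1.23. The median absolute log2 difference between A375 replicates was 0.533 with 6-thio-dG, 0.159 with BIBR1532 and 0.446 in the control. In those groups of LOX-IMVI BR it was 0.103, 0.141 and 0.106. With 6-thio-dG, rows of noncoding NONCODE genes took 7.42% and 7.16% of counts in LOX-IMVI BR, against 4.47% and 4.62% in its control, and 6.78% and 7.30% in A375, against 6.21% and 4.42% in its control. The part of these shares in the results below was not tested. SOX10, a factor of the melanocyte lineage, lay between 284 and 1412 CPM (reads scaled to a common library total) in A375 libraries and between 0.502 and 0.962 CPM in LOX-IMVI BR libraries, and TYR, the pigment enzyme tyrosinase, did not exceed 0.134 CPM in any library. Marker sums differed between treated and control libraries. Summed over 7 melanocyte markers, LOX-IMVI BR had 10.4 to 12.8 CPM with 6-thio-dG, 25.6 to 27.0 CPM with BIBR1532 and 9.94 to 10.1 CPM in the control, and A375 had 302 to 565 CPM, 1262 to 1425 CPM and 559 to 626 CPM in those groups. Most of the A375 sum was SOX10, at 559 and 284 CPM, 1412 and 1248 CPM and 512 and 590 CPM. MITF had 2.92 and 14.2 CPM, 6.46 and 9.65 CPM and 45.6 and 34.5 CPM there. Of the 5 markers tested in A375, 1 was called higher and 2 lower with 6-thio-dG, and 2 higher and 1 lower with BIBR1532. Summed over 5 markers of dedifferentiated melanoma, LOX-IMVI BR had 862 to 920 CPM with 6-thio-dG, 3239 to 3509 CPM with BIBR1532 and 2039 to 2071 CPM in the control, and A375 had 382 to 580 CPM, 3515 to 3704 CPM and 2759 to 3046 CPM. In both lines this second sum was lowest with 6-thio-dG and highest with BIBR1532. Its 5 markers did not move together with BIBR1532 in A375, where 2 were called higher and 2 lower (median log2 fold change -0.39). TNC had 2413 and 2285 CPM with BIBR1532, against 1195 and 1239 CPM in A375 control. AXL had 1193 and 1128 CPM against 1400 and 1646 CPM. Summed over 5 neuronal markers, whose genes often accompany ion channels, LOX-IMVI BR had 2.33 to 3.07 CPM with 6-thio-dG, 3.49 to 4.26 CPM with BIBR1532 and 3.01 to 3.55 CPM in the control, and A375 had 4.43 to 7.35 CPM, 4.51 to 5.92 CPM and 2.51 to 3.17 CPM. Summed leukocyte markers were 1.76 to 2.81 CPM with 6-thio-dG, 0.328 to 0.754 CPM with BIBR1532 and 0.452 to 0.455 CPM in the control of LOX-IMVI BR, and 4.34 to 6.58 CPM, 3.14 to 3.44 CPM and at most 1.63 CPM in A375. Neuronal and leukocyte sums were therefore higher in treated A375 libraries than in their controls. Summed endothelial markers were 1.35 to 1.88 CPM with 6-thio-dG, 4.96 to 5.00 CPM with BIBR1532 and 4.92 to 5.62 CPM in the control of LOX-IMVI BR, and 4.18 to 6.58 CPM, 8.14 to 8.25 CPM and 2.35 to 2.43 CPM in A375. Summed fibroblast markers were 7.02 to 7.07 CPM with 6-thio-dG, 28.6 to 33.0 CPM with BIBR1532 and 58.9 to 61.2 CPM in the control of LOX-IMVI BR, and 5.76 to 10.3 CPM, 9.55 to 10.8 CPM and 4.26 to 5.87 CPM in A375. Most of the LOX-IMVI BR sum was PDGFRA, at 5.01 and 5.21 CPM, 27.0 and 24.8 CPM and 56.9 and 55.3 CPM. Of the 4 fibroblast markers tested there, 1 was called lower with 6-thio-dG, and 1 higher and 1 lower with BIBR1532 (median log2 fold change 0.11). Summed keratinocyte markers were 77.0 to 89.7 CPM, 62.1 to 79.8 CPM and 67.7 to 79.0 CPM in those groups of LOX-IMVI BR and 130 to 212 CPM, 183 to 201 CPM and 193 to 324 CPM in A375, with treated and control ranges overlapping. The part of these sums in the channel results was not tested. Levels are TMM-scaled CPM in replicates 1 and 2, log2 fold changes are given ± SE, and adjusted p is the Benjamini-Hochberg value of edgeR's quasi-likelihood test over all 29114 genes tested. Nothing in the labels describes how separate the biological replicates were, so p-values measure the spread between these libraries. Where libraries of called genes are said not to overlap, this describes their values and is not a further test.

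Of the 95 genes, 59 had enough reads to be tested. By role these were 21 voltage-gated pores, 7 calcium- or sodium-activated pores, 9 inward rectifiers, 9 KCNK leak channels and 13 auxiliary subunits. Whether calls differed between roles was not tested. A gene could enter through a single group in which it was high, so the tested genes are not a neutral sample of the family. The 36 others stayed under 1 CPM in every library, the highest being KCNJ5 at 0.936 CPM, and KCNA10 had no count in any library. In GENCODE release 29, 31 of the 95 genes share exonic bases with another gene. Of the genes named below these are KCNAB1, KCNAB2, KCNE3, KCNG1, KCNH1, KCNH3, KCNJ4, KCNJ8, KCNJ13, KCNJ14, KCNK4, KCNK15, KCNMA1, KCNMB2, KCNN2 and KCNQ5. The library preparation kept no strand, so their reads may include those of the overlapping gene. A mean of at least 1 CPM was reached by 28 genes with 6-thio-dG, 23 with BIBR1532 and 24 in the control of LOX-IMVI BR, and by 36, 38 and 31 genes in those groups of A375. A few genes carried most of the reads: in each library the 5 highest genes held between 68.2% and 89.4% of all potassium channel counts.

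In LOX-IMVI BR control cells, levels per kilobase of the longest coding transcript were highest for KCNG1 (45.6 CPM per kb), KCNMA1 (31.9), KCNAB2 (30.5), KCNN4 (18.6) and KCNQ5 (8.13). In A375 control cells the order was KCNG1 (171 CPM per kb), KCNN4 (67.2), KCNH1 (13.3), KCNS3 (10.3) and KCNK1 (6.37). KCNG1 is a modifier subunit that forms channels only together with a partner pore subunit, and KCNAB2 is a cytoplasmic subunit of voltage-gated channels. Both lines thus shared KCNG1 and KCNN4 among their 5 highest genes. KCNAB2, KCNMA1 and KCNQ5 took ranks 6, 7 and 10 in A375 control, at 4.86, 4.81 and 1.86 CPM per kb. KCNH1, KCNS3 and KCNK1 took ranks 69, 42 and 37 in LOX-IMVI BR control.

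**Figure D1:**
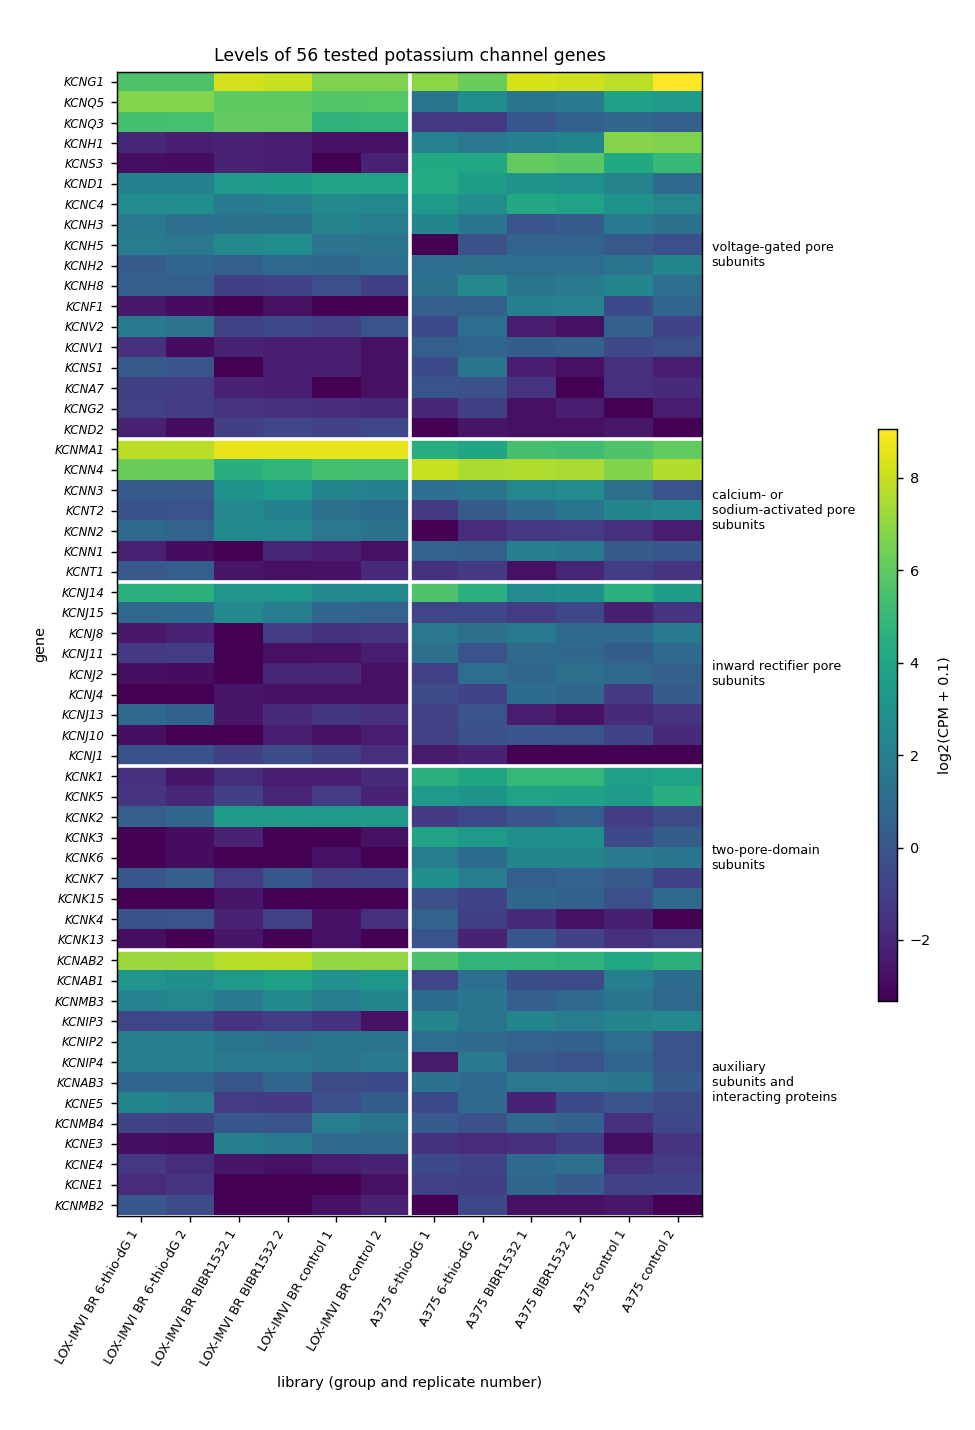
Levels of 56 tested potassium channel genes (rows, ordered by role) in the 12 libraries (columns), as colour on a log2(CPM + 0.1) scale. KCNH1, KCNS3, KCNK5 and KCNK1 differ in shade between the lines, and KCNH1 in A375 control libraries stands out from the treated A375 libraries beside them.

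LOX-IMVI BR control cells differed from A375 control cells in most potassium channel genes. Of the 59 tested, 16 were higher and 24 lower in LOX-IMVI BR, 67.8% of them, where 49.8% of all genes tested were called (21.1% higher, 28.8% lower), and 54.8% of those with a symbol (22.5% higher, 32.3% lower). By role, voltage-gated pores split into 6 higher and 7 lower, calcium- or sodium-activated pores into 3 and 3, inward rectifiers into 2 and 6, KCNK leak channels into 1 and 5, and auxiliary subunits into 4 and 3. KCNH1 showed the largest difference, with 0.0502 and 0.0455 CPM in LOX-IMVI BR against 114 and 103 CPM in A375. These LOX-IMVI BR levels are 1 read in each library, 2 in all, against 4181 reads in A375, a ratio of 2317-fold lower with a 95% counting interval of 641 to 19138. KCNS3, another modifier subunit, had 3 reads in LOX-IMVI BR control against 830 in A375 control, 307-fold lower (counting interval 105 to 1490). KCNF1, a modifier subunit as well, had 0 reads against 33 and was at least 12.2-fold lower, taking 3 reads over the group as the limit of a count of 0. KCNK15, a gene of the leak channel group, had 0 reads against 39, at least 14.4-fold lower by the same limit, and KCNK6, of the same group, had 1 read against 121, 134-fold lower (counting interval 23.6 to 5340). In all, 12 genes averaged at least 1 CPM in A375 control and under 0.5 CPM in LOX-IMVI BR control. KCNE3, KCNJ15, KCNMB4 and KCNN2 met the same cutoffs in reverse. The share of all genes tested that meet these cutoffs was not computed, so the count is not a result about the family.

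Other genes were higher in LOX-IMVI BR. KCNMA1 had 388 and 382 CPM in LOX-IMVI BR against 49.8 and 66.2 CPM in A375 (log2 fold change 2.73 ± 0.29, adjusted p = 2.35e-06). KCNAB2 had 130 and 131 CPM in LOX-IMVI BR against 17.01 and 24.5 CPM in A375 (2.66 ± 0.33, adjusted p = 1.01e-05). KCNQ3 and KCNQ5, pore subunits of the slow M-current, differed by 4.22 ± 0.34 and 2.12 ± 0.37 on the log2 scale. KCNQ3 had 26.4 and 28.4 CPM in LOX-IMVI BR against 1.61 and 1.27 CPM in A375, and KCNQ5 had 53.9 and 54.9 CPM against 13.6 and 11.3 CPM. KCNK2, a leak channel that responds to stretch and temperature, had 10.2 and 10.3 CPM in LOX-IMVI BR against 0.374 and 0.634 CPM in A375 (4.44 ± 0.40, adjusted p = 4.59e-07). KCNN4 went the other way, with 42.1 and 41.2 CPM in LOX-IMVI BR against 103 and 198 CPM in A375 (log2 fold change -1.86 ± 0.34, adjusted p = 0.000379). The groups did not overlap for any gene in this paragraph.

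**Figure D2:**
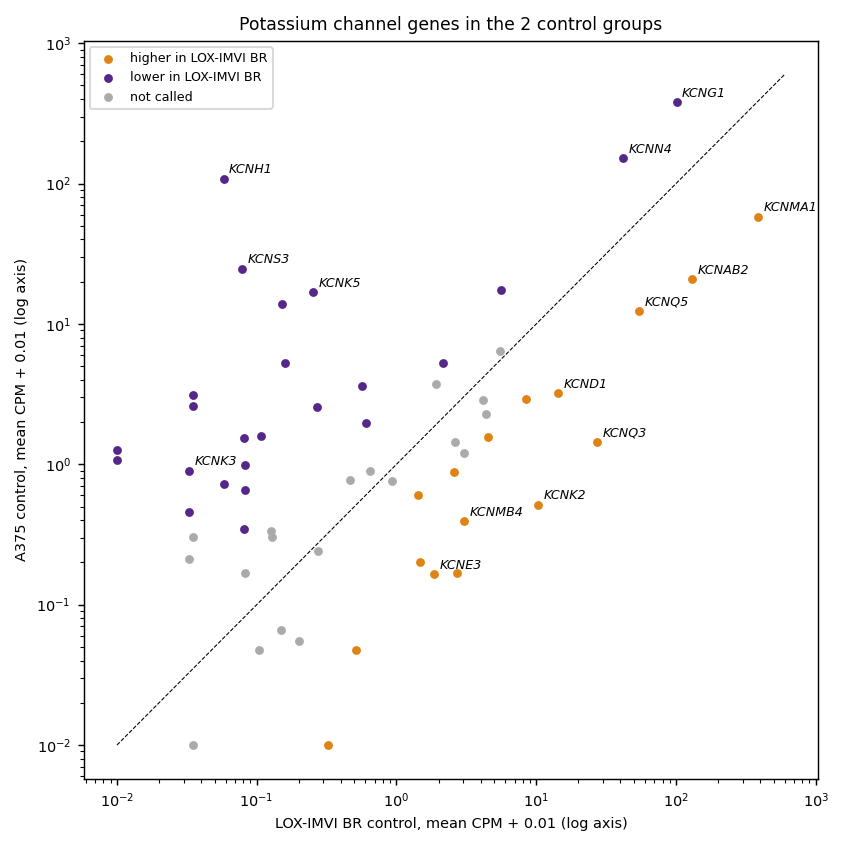
Mean level of each tested potassium channel gene in LOX-IMVI BR control (x axis) against A375 control (y axis), in CPM + 0.01 on log axes, coloured by the call between the lines. KCNH1 lies far above the diagonal, with a mean of 108 CPM in A375 control, and KCNMA1, KCNAB2, KCNQ3 and KCNK2 lie below it.

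KCNH1 fell with both compounds in A375, further than any other potassium channel gene called in that line. It had 4.43 and 3.02 CPM with 6-thio-dG and 3.95 and 4.70 CPM with BIBR1532, against 114 and 103 CPM in the control. In raw reads this was 53 and 45 with 6-thio-dG, 88 and 97 with BIBR1532, and 3045 and 1136 in the control. The treated and control libraries lie far apart and the compounds' libraries overlap. The change was -4.87 ± 0.34 on the log2 scale with 6-thio-dG (adjusted p = 4.79e-06), 29.2-fold lower, and -4.65 ± 0.34 with BIBR1532 (adjusted p = 2.21e-06). Both comparisons use the same 2 control libraries. Under all 22 alternative analyses of the 6-thio-dG change, the value stayed between -5.17 and -4.44 and the call held, as did the BIBR1532 call. Fewer cells with KCNH1 RNA and less KCNH1 RNA per cell cannot be told apart in these bulk samples. In length-scaled order within A375, KCNH1 took rank 30 with 6-thio-dG and rank 26 with BIBR1532, against rank 3 in the control. In LOX-IMVI BR it had 4 and 3 reads with 6-thio-dG, 2 and 2 with BIBR1532 and 1 and 1 in the control, too few to show a change (adjusted p = 0.385 and 0.698). HHAT, the palmitoyltransferase gene beside KCNH1 on the chromosome, had 61.5 and 51.3 CPM with 6-thio-dG and 127 and 123 CPM with BIBR1532, against 59.4 and 86.1 CPM in A375 control, and was not called with either compound (adjusted p = 0.389 and 0.0739). The genes that overlap KCNH1 are AC096636.1 on the opposite strand and AC092017.3 and AL590132.1 on its own.

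**Figure D3:**
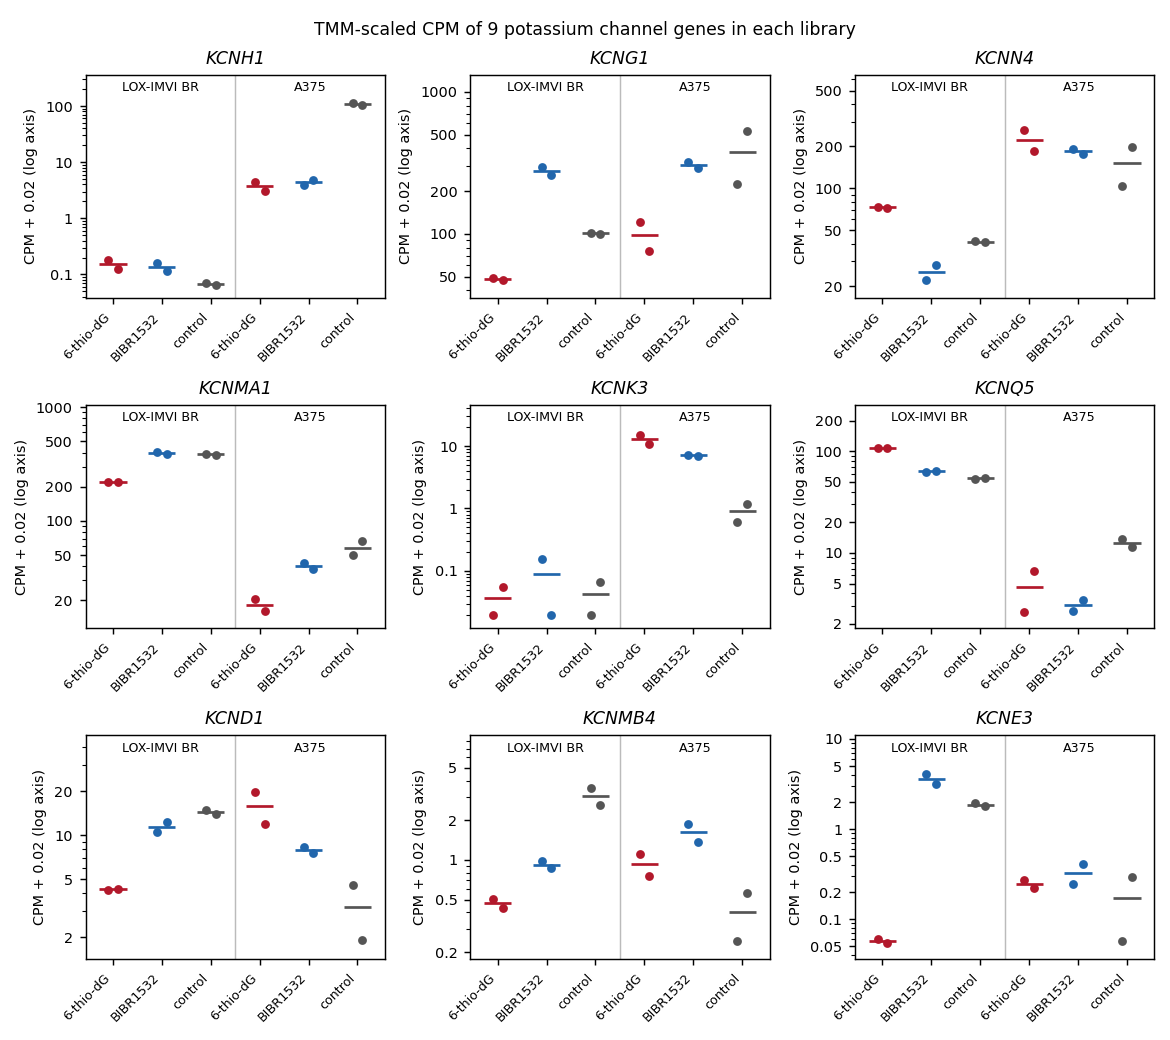
Level of 9 potassium channel genes in every library, in TMM-scaled CPM + 0.02 on a log axis, with points for libraries, bars for group means, LOX-IMVI BR at the left and A375 at the right of each panel. KCNH1 drops to 3.02 to 4.70 CPM in the 4 treated A375 libraries, against 103 to 114 CPM in the 2 A375 controls, and KCNK3 moves the opposite way.

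Promoters are shown for KCNH1, KCNK3 and KCND1, since KCNH1 and KCNK3 moved in opposite directions with both compounds in A375 and KCND1 moved in opposite directions between the lines. Each runs 5′ to 3′ on the gene's strand, from 250 bases before to 50 bases after the RefSeq start, on GRCh38.p14. KCNH1 is at chr1:211134099-211134398 on the minus strand, KCNK3 at chr2:26692472-26692771 on the plus strand and KCND1 at chrX:48971795-48972094 on the minus strand. Motifs were searched on both strands, and capitals mark the matches, to the GC box GGGCGG or to CCAAT, or to the reverse complement of either.
KCNH1: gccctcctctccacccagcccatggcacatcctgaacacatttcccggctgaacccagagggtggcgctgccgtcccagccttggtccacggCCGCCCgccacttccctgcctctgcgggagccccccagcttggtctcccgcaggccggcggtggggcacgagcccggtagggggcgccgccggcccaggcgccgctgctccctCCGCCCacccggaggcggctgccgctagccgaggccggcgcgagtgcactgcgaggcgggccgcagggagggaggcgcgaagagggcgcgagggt
KCNK3: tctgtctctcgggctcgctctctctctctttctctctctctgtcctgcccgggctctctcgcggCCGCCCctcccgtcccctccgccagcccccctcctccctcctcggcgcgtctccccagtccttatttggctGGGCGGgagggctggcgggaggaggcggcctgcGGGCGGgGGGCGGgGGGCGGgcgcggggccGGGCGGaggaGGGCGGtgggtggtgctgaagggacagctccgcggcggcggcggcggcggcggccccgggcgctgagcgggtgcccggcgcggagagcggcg
KCND1: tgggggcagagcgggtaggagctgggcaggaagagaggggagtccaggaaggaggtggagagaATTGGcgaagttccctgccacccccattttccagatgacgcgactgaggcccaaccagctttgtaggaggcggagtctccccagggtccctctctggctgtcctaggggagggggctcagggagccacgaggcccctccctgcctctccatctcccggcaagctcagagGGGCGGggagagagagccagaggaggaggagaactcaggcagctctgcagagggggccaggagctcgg
All 3 are GC-rich, at 76.0% for KCNH1, 78.7% for KCNK3 and 65.7% for KCND1, where the median over 27305 RefSeq promoters of this length is 58.3%. KCNK3 has 7 GC boxes and 39 CG pairs, KCNH1 has 2 and 32, and KCND1 has 1 and 9, with 14 CG pairs as the median of all promoters. The E-box CACGTG, the AP-1 motif TGANTCA and the TATAAA box match none of the 3. Of the 95 genes, 71 had a promoter in the RefSeq table. The GC box is in 60.6% of those 71 and in 44.6% of all promoters, CCAAT in 33.8% and 35.7%, TATAAA in 8.45% and 11.95%, CACGTG in 4.23% and 7.43%, and TGANTCA in 5.63% and 7.76%. These matches describe the letters of the reference and are not binding sites.

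With 6-thio-dG in A375, 14 of the 59 genes were called, 8 higher and 6 lower. That is 23.7%, where 18.1% of all genes tested were called (9.86% higher, 8.21% lower), and 20.7% of those with a symbol (7.81% higher, 12.9% lower), so the share lay near the background. The median log2 fold change was 0.41 over the 59 and 0.03 over all genes tested. Voltage-gated pores gave 5 higher and 4 lower of 21 tested, KCNK leak channels 3 higher of 9, and calcium- or sodium-activated pores 2 lower of 7. None of the 9 inward rectifiers or 13 auxiliary subunits tested was called. These numbers are too small to show a difference between roles. Of the 8 that rose, 6 averaged under 1 CPM in the control.

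Among voltage-gated pores, KCND1, which carries a fast-inactivating A-type current, rose to 19.6 and 11.9 CPM with 6-thio-dG, against 4.52 and 1.90 CPM in A375 control (2.23 ± 0.39, adjusted p = 0.00182). KCNS1, a modifier subunit, had 0.585 and 2.69 CPM against 0.224 and 0.0905 CPM (3.17 ± 0.73, adjusted p = 0.0094), and without 6-thio-dG replicate 2 its change was 1.63 with an adjusted p of 0.140. Both genes have treated libraries above both controls, with replicate 1 the higher treated library for KCND1 and replicate 2 for KCNS1. Besides KCNH1, 3 voltage-gated genes fell. KCNG1 fell to 121 and 76.0 CPM with 6-thio-dG, against 223 and 533 CPM (-1.94 ± 0.37, adjusted p = 0.00361). KCNQ3 fell to 0.334 and 0.336 CPM against 1.61 and 1.27 CPM (-2.11 ± 0.44, adjusted p = 0.00556), and KCNQ5 to 2.59 and 6.58 CPM against 13.6 and 11.3 CPM (adjusted p = 0.018). The M-current pair thus had its treated libraries below both controls.

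KCNK3, an acid-sensitive leak channel, had the largest rise among genes of at least 1 CPM. It reached 14.9 and 10.8 CPM with 6-thio-dG, against 0.598 and 1.18 CPM in A375 control (3.96 ± 0.48, adjusted p = 0.000188), a 15.6-fold increase. KCNK7, a member of the leak channel family with no known current of its own, rose to 7.35 and 3.56 CPM against 1.08 and 0.453 CPM (2.67 ± 0.48, adjusted p = 0.00245). Treated and control libraries of these leak channels did not overlap. KCNK4, a leak channel that responds to stretch, also rose while staying under 1 CPM on average, with 23 reads with 6-thio-dG against 3 in the control (ratio 10.8, counting interval 3.26 to 56.1). Both calcium- or sodium-activated genes that were called fell. KCNT2, a sodium-activated channel, had 0.334 and 1.07 CPM with 6-thio-dG, against 4.82 and 5.70 CPM (-2.83 ± 0.45, adjusted p = 0.00108), and KCNMA1 had 20.5 and 16.0 CPM against 49.8 and 66.2 CPM (-1.67 ± 0.28, adjusted p = 0.00162). KCNN4 had 261 and 185 CPM with 6-thio-dG, against 103 and 198 CPM in the control. Its groups overlapped and it was not called (0.57 ± 0.33, adjusted p = 0.241).

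Calls for KCNH1, KCNK3, KCNT2, KCNK7, KCND1 and KCNG1 held under every alternative. With A375 libraries analysed without LOX-IMVI BR the count was 9 of 49 tested, where 5.11% of all genes tested were called, and KCNQ3 (adjusted p = 0.0683), KCNMA1 (0.0509) and KCNQ5 (0.141) were among the genes no longer called. With upper-quartile scaling, which shifted the median change over all genes up by 0.39, 22 were called, 16 higher and 6 lower. The share of all genes called with that scaling is not given here, so this count is not a result about the family.

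With BIBR1532 in A375, 20 of the 59 genes were called, 13 higher and 7 lower. That is 33.9%, where 15.8% of all genes tested were called (8.49% higher, 7.29% lower), and 19.2% of those with a symbol (8.95% higher, 10.3% lower). The median log2 fold change was 0.29 against -0.04 over all genes. Voltage-gated pores gave 5 higher and 4 lower, calcium- or sodium-activated pores 2 higher and 1 lower, inward rectifiers 1 and 1, KCNK leak channels 2 higher, and auxiliary subunits 3 higher and 1 lower.

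Among the voltage-gated genes, modifier subunits included the highest in level. KCNS3 rose to 67.9 and 59.1 CPM with BIBR1532, against 17.98 and 31.6 CPM in A375 control (log2 fold change 1.36, adjusted p = 0.023), and KCNF1 rose to 4.26 and 4.46 CPM against 0.598 and 1.54 CPM (2.18 ± 0.43, adjusted p = 0.00553). KCNC4, a fast-activating channel, rose to 17.4 and 14.1 CPM against 7.74 and 5.16 CPM (adjusted p = 0.0183). KCND1 had 8.25 and 7.51 CPM against 4.52 and 1.90 CPM (adjusted p = 0.0394). Beside KCNH1, KCNQ5 fell to 2.69 and 3.44 CPM with BIBR1532, against 13.6 and 11.3 CPM (-2.02 ± 0.38, adjusted p = 0.00342). KCNH3, a relative of KCNH1 known from the forebrain, fell to 0.852 and 1.07 CPM against 3.40 and 2.35 CPM (adjusted p = 0.0171). KCNV2, a modifier subunit, had 3 reads against 40 in the control, 15.1-fold lower (counting interval 4.82 to 76.5). KCNG1, with 322 and 290 CPM against 223 and 533 CPM, lay within the spread of its controls.

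KCNK3 rose again, to 7.09 and 7.03 CPM with BIBR1532, against 0.598 and 1.18 CPM in the control (3.10 ± 0.47, adjusted p = 0.000817). KCNK1, a weakly conducting leak channel, had 30.4 and 30.6 CPM against 13.0 and 14.6 CPM (adjusted p = 0.0322). Of the small-conductance calcium-activated channels, KCNN1 rose to 3.99 and 3.49 CPM against 1.05 and 0.905 CPM (1.91 ± 0.40, adjusted p = 0.00718) and KCNN3 to 5.20 and 6.11 CPM against 2.28 and 0.815 CPM (1.76 ± 0.39, adjusted p = 0.00937). KCNN4 had 192 and 177 CPM against 103 and 198 CPM and was not called (adjusted p = 0.574). KCNMA1 had 42.4 and 37.9 CPM against 49.8 and 66.2 CPM and was not called either (-0.53 ± 0.27, adjusted p = 0.197). KCNMB4, an auxiliary subunit of the KCNMA1 channel, rose to 1.84 and 1.36 CPM against 0.224 and 0.543 CPM (2.25 ± 0.48, adjusted p = 0.00765).

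Of the KCNE auxiliary subunits, KCNE4, an inhibitor of the KCNQ1 channel, rose to 1.93 and 2.28 CPM with BIBR1532, against 0.224 and 0.362 CPM in A375 control (2.93 ± 0.45, adjusted p = 0.000756), and KCNE1 had 1.66 and 1.07 CPM against 0.449 and 0.453 CPM (adjusted p = 0.0358). KCNAB1, a cytoplasmic subunit that speeds inactivation, fell to 0.673 and 0.630 CPM against 3.78 and 1.99 CPM (-2.18 ± 0.52, adjusted p = 0.0131). Inward rectifiers moved in opposite directions. KCNJ4 had 1.97 and 1.70 CPM against 0.336 and 1.09 CPM (adjusted p = 0.0405), and KCNJ14 had 6.14 and 7.32 CPM against 23.0 and 11.7 CPM (adjusted p = 0.0268). KCNT2 had 1.79 and 2.67 CPM against 4.82 and 5.70 CPM (-1.23, adjusted p = 0.0393), and with a correction for GC content its change was 0.02. Treated and control libraries did not overlap for any gene called in this comparison that is named with CPM values here. Genes chosen by their calls would mostly show this, so it adds no support.

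Only KCNH1, KCNK3 and KCNE4 kept their calls with BIBR1532 in A375 under every alternative run. The count was 5 without BIBR1532 replicate 1, 5 without BIBR1532 replicate 2 and, with A375 libraries alone, 5 of 49 tested, where 3.85% of all genes tested were called.

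**Figure D4:**
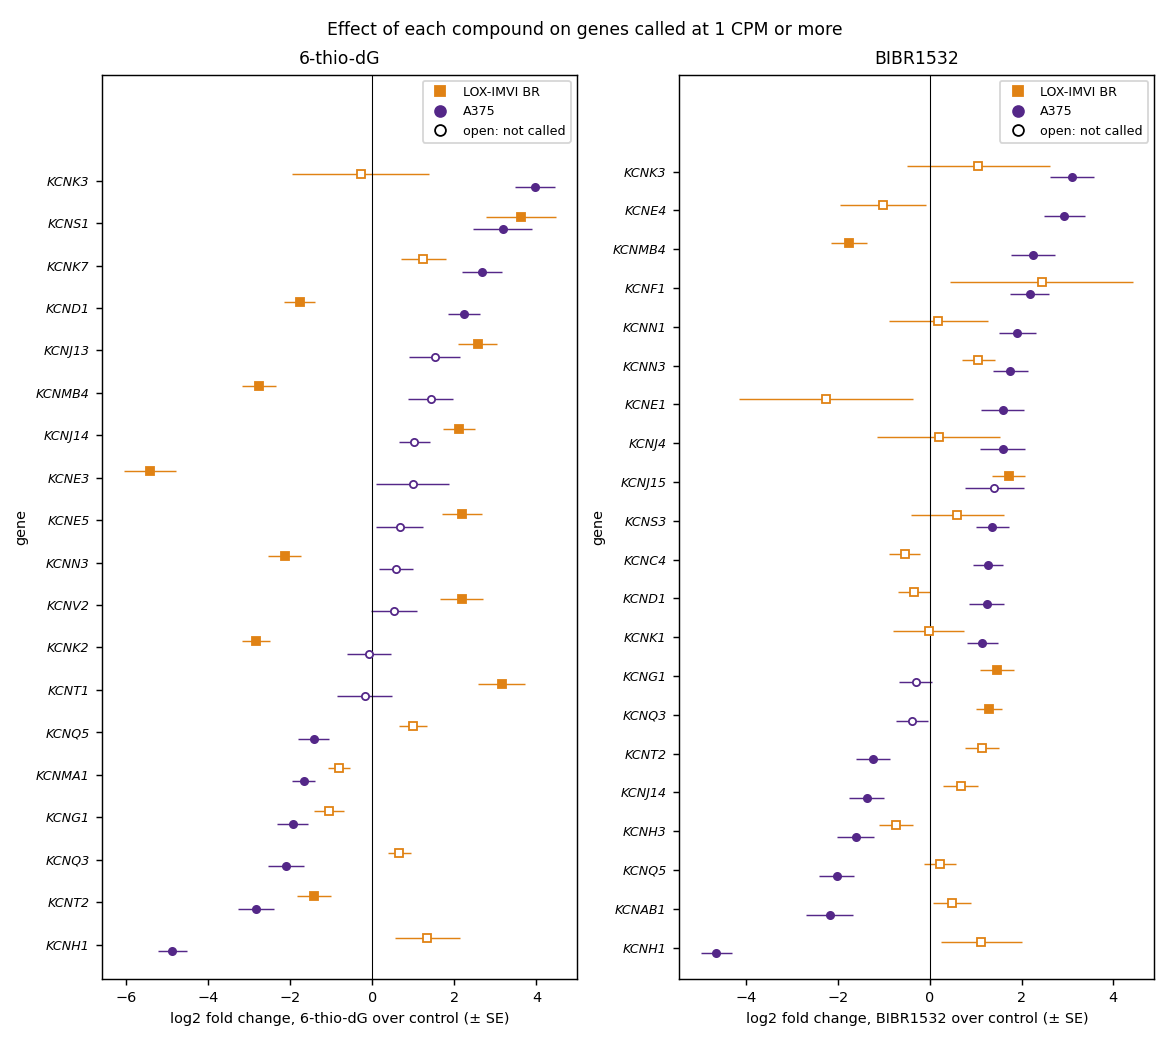
Log2 fold change ± SE against the control of the same line for 6-thio-dG (left panel) and BIBR1532 (right panel), for a selection of the genes called at 1 CPM or more in at least 1 line, with LOX-IMVI BR as squares above A375 circles and open symbols for genes not called. KCNH1 in A375 lies at -4.87 with 6-thio-dG and -4.65 with BIBR1532, and KCND1 with 6-thio-dG has LOX-IMVI BR at -1.77 and A375 at 2.23.

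With 6-thio-dG in LOX-IMVI BR, 19 of the 59 genes were called, 12 higher and 7 lower. That is 32.2%, where 17.0% of all genes tested were called (9.81% higher, 7.16% lower), and 17.0% of those with a symbol (6.21% higher, 10.8% lower). The median log2 fold change was 0.38 against 0.05 over all genes. Voltage-gated pores gave 5 higher and 2 lower, auxiliary subunits 3 and 2, calcium- or sodium-activated pores 1 and 2, inward rectifiers 2 higher, and KCNK leak channels 1 and 1. Of the 12 that rose, 10 averaged under 1 CPM in the control, and 6 stayed under 1 CPM with 6-thio-dG as well.

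The strongest fall was that of KCNE3, an auxiliary subunit that can hold the KCNQ1 channel open. It had 0.0401 and 0.0345 CPM with 6-thio-dG, against 1.91 and 1.78 CPM in LOX-IMVI BR control, which is 2 reads against 77, 49.6-fold lower (counting interval 13.3 to 417; adjusted p = 9.71e-05). KCNK2 fell to 1.24 and 1.62 CPM against 10.2 and 10.3 CPM (-2.83 ± 0.33, adjusted p = 9.46e-05). KCNMB4 fell to 0.481 and 0.414 CPM against 3.52 and 2.59 CPM (-2.76 ± 0.41, adjusted p = 0.00047). These 3 genes have both treated libraries well below both controls. KCNN3 fell to 1.04 and 1.00 CPM against 4.77 and 4.23 CPM (-2.13 ± 0.40, adjusted p = 0.00235), KCND1 to 4.17 and 4.28 CPM against 14.8 and 14.0 CPM (adjusted p = 0.0049), and KCNT2 to 0.762 and 0.828 CPM against 2.36 and 1.96 CPM (adjusted p = 0.0274). KCND2, from the same A-type group as KCND1, was called lower at under 1 CPM, with 0.120 and 0.0345 CPM against 0.452 and 0.546 CPM.

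Among the genes that rose in LOX-IMVI BR, KCNJ14, an inward rectifier, was highest in level. It had 24.1 and 24.7 CPM with 6-thio-dG, against 5.37 and 5.83 CPM in the control (2.12 ± 0.39, adjusted p = 0.00206). KCNJ13, an inward rectifier of the retinal pigment epithelium, rose to 1.84 and 1.35 CPM against 0.301 and 0.228 CPM (2.57 ± 0.47, adjusted p = 0.00219), and KCNT1, a sodium-activated channel, to 1.00 and 1.21 CPM against 0.0502 and 0.182 CPM (3.15 ± 0.57, adjusted p = 0.00193). KCNE5, a further KCNE subunit, had 4.65 and 3.83 CPM against 0.703 and 1.14 CPM (2.19 ± 0.48, adjusted p = 0.00606), and KCNV2 had 3.33 and 2.52 CPM against 0.452 and 0.819 CPM (2.18 ± 0.52, adjusted p = 0.0104). KCNJ13 was not called in A375, with 0.418 and 0.806 CPM with 6-thio-dG and 0.187 and 0.272 CPM in the control (adjusted p = 0.0988). For each of these genes in LOX-IMVI BR, the lower treated library lay above the higher control. Genes chosen by their calls would mostly show this, so it adds no support. KCNJ13 and KCNT1 had enough reads to be tested only through these 6-thio-dG libraries, so the filter favoured a rise there. Low-level rises were counted in reads: KCNS1 had 51 reads with 6-thio-dG against 3 (ratio 13.2, counting interval 4.27 to 66.1), KCNA7 21 against 1 (16.3, 2.62 to 674) and KCNE1 13 against 1 (10.1, 1.52 to 429). KCNK4 and KCNMB2 were called higher as well with means under 1 CPM, and KCNMB2 too was tested only through these 6-thio-dG libraries.

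Several of the most abundant channels of LOX-IMVI BR were tightly measured yet not called. KCNMA1 had 219 and 220 CPM with 6-thio-dG, against 388 and 382 CPM in the control (-0.81 ± 0.27, adjusted p = 0.0542). KCNN4 had 74.1 and 72.6 CPM against 42.1 and 41.2 CPM (0.82 ± 0.33, adjusted p = 0.107). KCNG1 had 48.8 and 47.6 CPM against 101 and 100.3 CPM (-1.06 ± 0.37, adjusted p = 0.0596), and KCNQ5 108 and 108 CPM against 53.9 and 54.9 CPM, also not called. The spread that these tests use is pooled with A375. With LOX-IMVI BR libraries alone, 33 of the 40 potassium channel genes then tested were called, where 62.8% of all 24087 genes tested were, and KCNMA1 (-0.80, adjusted p = 1.78e-14) and KCNN4 (0.83, adjusted p = 3.21e-11) were among them. Replicates of this line varied little beyond counting error with 6-thio-dG and in the control. The median chi-square per gene between them was 0.662 with 6-thio-dG and 0.58 in the control, where counting error alone gives 0.455. It was 1.04 with BIBR1532, whose libraries enter the same pooled spread. The p-values of this line alone therefore measure a small spread, which with 6-thio-dG and in the control is little more than counting error. Calls for KCNE3, KCNT1, KCNK2, KCNMB4, KCNN3 and KCNJ14 held under every alternative, and the count fell to 10 and 11 without 6-thio-dG replicate 1 or 2 and to 9 without either control.

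With BIBR1532 in LOX-IMVI BR, 4 of the 59 genes were called, 3 higher and 1 lower. That is 6.78%, where 3.59% of all genes tested were called (2.90% higher, 0.690% lower), and 3.78% of those with a symbol (3.03% higher, 0.748% lower). At an unadjusted p under 0.05 there were 13, or 22.0%, where 15.5% of all genes tested passed that threshold, and the median log2 fold change was 0.13 against 0.04 over all genes. With upper-quartile scaling 2 were called, 1 higher and 1 lower. KCNG1 rose to 297 and 261 CPM with BIBR1532, against 101 and 100.3 CPM in the control (1.47 ± 0.37, adjusted p = 0.0388), and KCNQ3 to 66.9 and 68.0 CPM against 26.4 and 28.4 CPM (1.30 ± 0.29, adjusted p = 0.0186). KCNJ15, an inward rectifier, rose to 6.03 and 3.70 CPM against 1.56 and 1.37 CPM (1.72 ± 0.36, adjusted p = 0.0138). KCNMB4 fell to 0.959 and 0.842 CPM against 3.52 and 2.59 CPM (-1.76 ± 0.39, adjusted p = 0.02). In all 4 the treated and control libraries did not overlap. KCNMA1, with 407 and 387 CPM against 388 and 382 CPM, showed no difference beyond its spread (0.04, adjusted p = 0.998). KCNN4 had 22.2 and 28.5 CPM against 42.1 and 41.2 CPM (-0.72, adjusted p = 0.313). None of the 4 calls held under every alternative. With LOX-IMVI BR libraries alone 20 of 40 genes were called, where 44.8% of all genes tested were, so that share lay near the background. The count was 0 without BIBR1532 replicate 1, 1 without BIBR1532 replicate 2 and 0 without either control. It also moved to 8 without either A375 6-thio-dG library and to 2 without A375 BIBR1532 replicate 2 or either LOX-IMVI BR 6-thio-dG library.

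The response of a gene to a compound was compared between the lines by an interaction term, as the effect in LOX-IMVI BR minus that in A375. For 6-thio-dG, 9 of the 59 genes differed, 4 with a positive and 5 with a negative difference, 15.3% where 5.54% of all genes tested were called (2.48% higher, 3.06% lower), and 7.25% of those with a symbol (3.10% higher, 4.16% lower). KCNH1 differed by 6.20 ± 0.86 (adjusted p = 0.000916), with almost no reads in LOX-IMVI BR under any condition. KCND1 differed by -4.00 ± 0.53 (adjusted p = 0.000682), falling by 1.77 on the log2 scale in LOX-IMVI BR and rising by 2.23 in A375. Its level with 6-thio-dG was 4.17 and 4.28 CPM in LOX-IMVI BR and 19.6 and 11.9 CPM in A375. KCNMB4 differed by -4.18 ± 0.68 (adjusted p = 0.00242), having fallen in LOX-IMVI BR, while in A375 it had 1.09 and 0.739 CPM with 6-thio-dG, against 0.224 and 0.543 CPM. KCNE3 differed by -6.40 ± 1.22 (adjusted p = 0.00735), and its A375 level did not exceed 0.388 CPM in any library. KCNT1, with 3.34 ± 0.90 (adjusted p = 0.0416), completes the 5 largest differences among genes of at least 1 CPM. It was tested only through its LOX-IMVI BR libraries with 6-thio-dG, so the filter favoured a positive difference. Calls for KCNE3, KCNH1, KCNMB4 and KCND1 held under every alternative. The count was 5 without either LOX-IMVI BR 6-thio-dG library or LOX-IMVI BR control replicate 1, and 16 without A375 6-thio-dG replicate 2.

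Of the genes called with 6-thio-dG, 6 were called in both lines, which is 31.6% of the LOX-IMVI BR calls and 42.9% of the A375 calls. Over all genes tested, 1477 were called in both lines, 29.9% of the LOX-IMVI BR calls and 28.1% of the A375 calls. The channel share thus lay near the background in LOX-IMVI BR, and the share in A375 rests on 6 of 14 calls. Of these, 4 were higher in both lines, KCNK4 and KCNS1 among them, KCNT2 was lower in both, and KCND1 moved in opposite directions. The lines have separate controls.

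For BIBR1532, 7 of the 59 genes differed between the lines, 5 positive and 2 negative, 11.9% where 3.64% of all genes tested were called (2.09% higher, 1.55% lower), and 4.72% of those with a symbol (2.76% higher, 1.97% lower). KCNH1 differed by 5.77 ± 1.02 (adjusted p = 0.00872). KCNMB4 differed by -4.01 ± 0.62 (adjusted p = 0.00364), the 1 gene called in both lines with this compound, lower in LOX-IMVI BR and higher in A375. Its treated levels were close, at 0.959 and 0.842 CPM in LOX-IMVI BR and 1.84 and 1.36 CPM in A375, from controls of 3.52 and 2.59 CPM in LOX-IMVI BR and 0.224 and 0.543 CPM in A375. KCNAB1 (2.66 ± 0.66, adjusted p = 0.0409), KCNT2 (2.37 ± 0.53, adjusted p = 0.0266) and KCNQ5 (2.25 ± 0.51, adjusted p = 0.0285) follow in size. The KCNMB4 call alone held under every alternative. The count was 1 without either LOX-IMVI BR BIBR1532 library, 2 without either A375 BIBR1532, LOX-IMVI BR control or LOX-IMVI BR 6-thio-dG library, and 12 without either A375 6-thio-dG library. The split was 4 positive and 3 negative with upper-quartile scaling, and 2 and 3 with symbol-named genes alone.

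The compounds were used at different concentrations, 5 µM for 6-thio-dG and 25 µM for BIBR1532, so differences between them are differences between these exposures. In LOX-IMVI BR, 22 of the 59 genes differed, 12 higher and 10 lower with 6-thio-dG, 37.3% where 20.6% of all genes tested were called (9.90% higher, 10.7% lower), and 20.3% of those with a symbol (5.53% higher, 14.8% lower). The largest differences among genes of at least 1 CPM were those of KCNE3, KCNT1, KCNE5 and KCNJ13, with KCNN3 next. KCNE3 had 2 reads with 6-thio-dG against 126 with BIBR1532, 94.5-fold lower (counting interval 25.6 to 789), and KCNT1 had 60 against 2 (4.17 ± 0.69 on the log2 scale, counting interval of the ratio 5.30 to 169). KCNE5 had 4.65 and 3.83 CPM with 6-thio-dG against 0.343 and 0.328 CPM with BIBR1532 (3.64 ± 0.57, adjusted p = 0.000467). KCNJ13 had 1.84 and 1.35 CPM against 0.0685 and 0.187 CPM (3.47 ± 0.55, adjusted p = 0.000558), and KCNN3 had 1.04 and 1.00 CPM against 8.15 and 10.5 CPM (-3.19 ± 0.40, adjusted p = 8.85e-05). KCNT1 and KCNJ13 were tested only through these 6-thio-dG libraries, so the filter favoured a higher level with 6-thio-dG. KCNN4 was higher with 6-thio-dG, at 74.1 and 72.6 CPM against 22.2 and 28.5 CPM with BIBR1532 (1.53 ± 0.34, adjusted p = 0.00495). The count was 14 without 6-thio-dG replicate 2, 13 without BIBR1532 replicate 1 and 14 without BIBR1532 replicate 2. With upper-quartile scaling the split was 17 higher and 7 lower, and with symbol-named genes alone 14 and 7.

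In A375, 20 of the 59 genes differed between the compounds, 9 higher and 11 lower with 6-thio-dG, where 16.0% of all genes tested were called (7.26% higher, 8.76% lower), and 16.6% of those with a symbol (5.13% higher, 11.4% lower). KCNS1 had 47 reads with 6-thio-dG against 3 with BIBR1532, a ratio of 25.0 (counting interval 8.06 to 126), and KCNV2 had 39 against 3, a ratio of 20.8 (6.60 to 105). Replicate 2 held most of these reads, 40 of the 47 for KCNS1 and 32 of the 39 for KCNV2. Without it the log2 fold change of KCNS1 was 2.94 (adjusted p = 0.0385), against 4.48 with it, and that of KCNV2 was 2.94 (adjusted p = 0.0572), against 4.22. Without BIBR1532 replicate 2, neither was called (adjusted p = 0.0579 for KCNS1 and 0.071 for KCNV2). KCNJ14 had 47.8 and 23.5 CPM with 6-thio-dG against 6.14 and 7.32 CPM with BIBR1532 (2.40 ± 0.39, adjusted p = 0.000913), and KCNK7 had 7.35 and 3.56 CPM against 1.26 and 1.41 CPM (2.02 ± 0.45, adjusted p = 0.00727). KCNH1 was not called between the compounds (-0.22 ± 0.31, adjusted p = 0.675), which does not show that they act alike. KCNJ14 kept its call under every alternative, and the count was 8 without either BIBR1532 library and, with A375 libraries alone, 7 of 49 tested, where 6.68% of all genes tested were called. With upper-quartile scaling the split was 11 higher and 7 lower.

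KCNH2, a relative of KCNH1 that repolarises heart muscle, had 1.08 and 1.52 CPM with 6-thio-dG, 1.23 and 1.78 CPM with BIBR1532 and 1.66 and 2.18 CPM in the control of LOX-IMVI BR. In A375 it had 2.17 and 2.28 CPM with 6-thio-dG, 2.02 and 2.04 CPM with BIBR1532 and 2.58 and 4.89 CPM in the control. It was not called in any of the 9 comparisons.

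Genes that work with potassium channels without carrying a KCN name were counted in the same fits. The lists held 14 partner genes (6 tested), 20 pump and cotransporter genes (13 tested), 5 subunits of the volume-regulated anion channel and 8 genes of store-operated calcium entry and calmodulin (all tested). In each comparison of a compound with control, 0 to 3 genes of each list were called. With 6-thio-dG in A375, ABCC9, the regulatory subunit of ATP-sensitive potassium channels, fell to 0.585 and 0.470 CPM against 4.90 and 4.98 CPM in the control (-3.22 ± 0.40, adjusted p = 0.000256). With BIBR1532 in LOX-IMVI BR it rose to 90.2 and 76.1 CPM against 9.79 and 10.97 CPM (adjusted p = 0.000119). The pore genes that pair with it were low throughout: KCNJ8 had 1.89 to 3.17 CPM in A375 and 0 to 0.374 CPM in LOX-IMVI BR libraries, and neither it nor KCNJ11 was called against a control. SLC12A7, a potassium-chloride cotransporter, rose to 3.56 and 3.18 CPM with BIBR1532 in LOX-IMVI BR against 0.201 and 0.091 CPM (4.49 ± 0.52, adjusted p = 0.000236). With 6-thio-dG in LOX-IMVI BR, 3 of the 13 pump and cotransporter genes fell and none rose, where 7.16% of all genes tested and 10.8% of those with a symbol were called lower. Among them SLC12A5, a potassium-chloride cotransporter known from neurons, fell by 2.32 on the log2 scale. LRRC8E, an anion channel subunit, rose in LOX-IMVI BR to 2.77 and 3.69 CPM with 6-thio-dG and 2.81 and 3.42 CPM with BIBR1532, against 0.452 and 0.455 CPM, though without control replicate 2 the BIBR1532 call was lost (adjusted p = 0.0546). In A375, ORAI3, a pore of store-operated calcium entry, rose with both compounds, by 1.31 with 6-thio-dG (adjusted p = 0.0133) and 1.27 with BIBR1532 (adjusted p = 0.0183). It was called with neither compound with A375 libraries alone (adjusted p = 0.0934 and 0.124), and its BIBR1532 call was also lost without BIBR1532 replicate 1 (0.152) or 2 (0.0755) or A375 control replicate 1 (0.0504). CALM2, which encodes the calcium sensor calmodulin that the KCNN channels carry, fell by 1.58 with 6-thio-dG and by 1.59 with BIBR1532 on the log2 scale in A375, but was not called with A375 libraries alone (adjusted p = 0.0721 and 0.081) or with the GC correction (-0.71, adjusted p = 0.0693, and -0.73, adjusted p = 0.0611). Its BIBR1532 call was also lost without BIBR1532 replicate 1 (0.104) or 2 (0.106).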

How the data were processed

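Gene expression was measured by RNA sequencing of 12 libraries, 2 biological replicates in each of 6 groups, from total RNA isolated with TRIzol and, per the labels' protocols, a TruSeq preparation that keeps no strand. The authors deposited raw whole-number counts for every gene and library. Builds hg19 and GRCh37 and the tools featureCounts 1.5.1, STAR, GATK and Picard are listed in the submitters' processing notes, with no role given. The gene annotation is not given in the sources used here. Of 75253 rows, 4 with 2 ambiguous date-like names were dropped. The members and gene lists were chosen with earlier results of these data known.

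The test was edgeR 4.0.16 under R 4.3.3, with limma 3.58.1 and the data.table package at 1.17.8: filterByExpr, TMM scaling, 6 group means fitted to all 12 libraries by quasi-likelihood with 6 residual degrees of freedom, and Benjamini-Hochberg adjustment over the 29114 genes tested (14439 with a symbol) in each of 9 comparisons. A gene was called at an adjusted p under 0.05. The procedure was tested on simulated data. Named with full statistics were KCNH1, KCNN4, KCNMA1, KCNH2 and KCNJ13 whatever their result, up to 10 called members of at least 1 CPM for each compound against control, and 5 in each other comparison, by size of change. ABCC9, KCNJ8, KCNJ11, HHAT and the other non-KCN genes, and members at low counts, were named after their values were seen. So were KCNAB2, KCNE3, KCNJ15, KCNK2, KCNMB4, KCNN2, KCNQ3 and KCNQ5 between the controls. Counting intervals are exact, at the 95% level, and a count of 0 was taken as at most 3 counts over the group; both cover counting error only. Alternatives were DESeq2 1.42.0 (size factors and Wald test), upper-quartile scaling, other low-count filters, symbol-named genes alone, a GC offset, a replicate block, each line alone and each library left out. Counts under an alternative that stand without a share of all genes called are not results about the family. Transcript lengths and exon overlaps came from GENCODE release 29, and promoters from RefSeq on GRCh38.p14, not the build of the counts, so no other coordinates are given. Some genes that entered the counts are not reported here by name.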

Additional observations from a re-analysis of the deposited data

Results flagged for a closer look

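The response to 6-thio-dG differed between the lines, by the interaction term (LOX-IMVI BR effect minus A375 effect, log2 scale), for 9 potassium channel genes: KCNH1 by 6.20, KCNT1 by 3.34, KCNQ3 by 2.77, KCNQ5 by 2.42, KCNN3 by -2.70, KCNK2 by -2.76, KCND1 by -4.00, KCNMB4 by -4.18 and KCNE3 by -6.40. The response to BIBR1532 differed for KCNH1 by 5.77, KCNAB1 by 2.66, KCNT2 by 2.37, KCNQ5 by 2.25, KCNJ14 by 2.05, KCNC4 by -1.81 and KCNMB4 by -4.01. For KCNH1, the LOX-IMVI BR side of both differences rests on 1 to 4 reads per library.

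With 6-thio-dG, KCNQ5 had 108 and 108 CPM in LOX-IMVI BR, against 53.9 and 54.9 CPM in its control, and 2.59 and 6.58 CPM in A375, against 13.6 and 11.3 CPM in its control. KCNQ3 had 42.7 and 43.9 CPM in LOX-IMVI BR, against 26.4 and 28.4 CPM, and 0.334 and 0.336 CPM in A375, against 1.61 and 1.27 CPM. With BIBR1532, KCNC4 had 3.43 and 4.02 CPM in LOX-IMVI BR, against 5.52 and 5.37 CPM, and 17.4 and 14.1 CPM in A375, against 7.74 and 5.16 CPM.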

How the results depend on the processing

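Of 72 calls on named potassium channel genes, 33 held under every alternative run. The number called with 6-thio-dG in A375, 14, was 22 with upper-quartile scaling, 22 with a GC offset, 22 with the GC offset and replicate block together and 9 with that line's libraries alone. With BIBR1532 in A375, 20 became 5 with the line alone. With 6-thio-dG in LOX-IMVI BR, 19 became 33 with the line alone, of 40 then tested. With BIBR1532 in LOX-IMVI BR, 4 became 2 with upper-quartile scaling, 7 with the GC offset and 20 with the line alone. Between the compounds in A375, 20 became 7 with the line alone, and for the line difference in the BIBR1532 effect 7 became 11 without a low-count filter. The cause was not tested. Shares of all genes called are not given beside the counts in this section. The counts therefore do not show whether the family moved apart from other genes. Leaving out 1 library at a time gave 13 to 20 calls for 6-thio-dG in A375, 5 to 21 for BIBR1532 in A375, 9 to 28 for 6-thio-dG in LOX-IMVI BR and 0 to 8 for BIBR1532 in LOX-IMVI BR. Between the compounds it gave 8 to 24 in A375 and 13 to 30 in LOX-IMVI BR, for the line differences 5 to 16 with 6-thio-dG and 1 to 12 with BIBR1532, and between the controls 33 to 46. The library then alone in its group was assumed to vary like the others. Upper-quartile scaling moved the median of all genes by 0.39 and 0.23 with 6-thio-dG and BIBR1532 in A375, and by 0.23 and -0.12 in LOX-IMVI BR.

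Changes of sign affected 3 results. KCNT2 with BIBR1532 in A375 was 0.019 with the GC offset and 0.018 with the GC offset and block. KCNN4 with BIBR1532 in A375, not called, ran from -0.10 without A375 control replicate 1 to 0.84 without A375 control replicate 2. KCNMA1 with BIBR1532 in LOX-IMVI BR, not called, was -0.076 with upper-quartile scaling, -0.0095 with a 1 CPM filter, -0.021 with symbol-named genes alone, -0.14 with the GC offset, -0.14 with the GC offset and block, -0.012 with the line alone, and with 1 library left out it ran from -0.0097 (A375 BIBR1532 replicate 2) to 0.075 (LOX-IMVI BR BIBR1532 replicate 2).

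Correlations of replicate differences between groups ran from -0.21 to 0.49, so replicate numbers did not pair the libraries in all groups. The 0.49 was between 6-thio-dG and BIBR1532 in A375, whose control correlated with them at -0.10 and -0.21. In LOX-IMVI BR the correlations were 0.025, 0.0005 and 0.035. With a replicate block the counts were 14 and 18 for 6-thio-dG and BIBR1532 in A375, 18 and 3 in LOX-IMVI BR, 16 and 20 between the compounds in A375 and LOX-IMVI BR, 8 and 5 for the line differences and 38 between the controls.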
